A study of Mus musculus with 6 samples.

Results

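In macrophages from the epididymal fat of obese mice, most genes of the early feedback set lay below their level in lean mice. The set holds 10 genes: the nuclear receptors Nr4a1, Nr4a2 and Nr4a3, the phosphatases Dusp1, Dusp2 and Dusp6, the mRNA decay factors Zfp36, Zfp36l1 and Btg2, and the early response gene Ier3. They were chosen by name, each as the array row annotated with its symbol, and all 10 were found, with 1 row each, among 30142 genes tested. High-fat diet (HFD) arrays came from male C57BL/6J mice given 60% fat chow for 16 weeks, and normal chow (NCD) arrays from males of that strain, 22 weeks old like the HFD mice. Both diets started at 6 weeks of age. There were 3 arrays per diet, each from 1 pool of 10 mice (HFD) or 20 mice (NCD), with 100 ng of RNA per pool. The cells were freed from fat with collagenase and taken out of the stromal fraction with an F4/80 antibody and magnetic beads, so the fraction is an enrichment, and a pool gives no value for its single mice.

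Most of these genes switch on soon after a stimulus, without new protein synthesis, and most of their products then damp the signal that induced them. Nr4a receptors have no settled natural ligand, and in macrophages Nr4a1 is known for limiting inflammatory gene expression. Receptor activity was not measured here. Dusp phosphatases switch off MAP kinases, while Zfp36 and its relatives speed the decay of cytokine mRNA with AU-rich elements.

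All 10 genes had a lower mean in HFD than in NCD arrays, and 7 of 10 passed an adjusted p of 0.05 in limma's test, all of them lower; 0 of 10 were called higher, with or without adjustment. Over all genes tested, 7.83% were called in either direction, 2.87% lower and 4.96% higher. The median change of the 10 genes was −1.13 (log2 HFD minus NCD), against 0.01 over all genes. In 8 of 10 genes every HFD array lay below every NCD array, which held for 13.0% of all genes. Expression is given on the deposited log2 scale, and every change is a difference on that scale with its moderated standard error. In such bulk samples, fewer cells of a type and less RNA per cell cannot be told apart.

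The arrays of each diet did not agree equally well, and this touches the results. Over all transcript clusters the HFD arrays correlated at 0.9947 to 0.9952 with one another, and the NCD arrays at 0.9852 to 0.9932. All 12 macrophage markers were above the array background level of 6.23 on every array, the lowest being Aif1 at 7.26 to 8.06. Adgre1, which encodes the F4/80 antigen, had 16.54, 16.55 and 16.70 in HFD1 to HFD3 and 16.08, 15.93 and 15.05 in NCD1 to NCD3. Among the NCD arrays, 11 of the 12 macrophage markers were lowest in NCD3, as were 42.5% of all genes. All 10 genes of the set were above background on every array.

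The promoters of 5 of the 10 genes are printed because they share a short element. The half-site TGACG, read on either strand, is the core of the cyclic AMP response element, TGACGTCA, which CREB family factors bind. It lay at least 2 times within the 250 bases before the start of Nr4a1, Nr4a2, Nr4a3, Dusp1 and Btg2, and not in that window of the other 5 genes. Capitals mark the half-sites, with overlapping ones joined, and sequences are RefSeq's on GRCm38.p6, 5′ to 3′.
Nr4a1, chr15:101266596-101266845, plus strand: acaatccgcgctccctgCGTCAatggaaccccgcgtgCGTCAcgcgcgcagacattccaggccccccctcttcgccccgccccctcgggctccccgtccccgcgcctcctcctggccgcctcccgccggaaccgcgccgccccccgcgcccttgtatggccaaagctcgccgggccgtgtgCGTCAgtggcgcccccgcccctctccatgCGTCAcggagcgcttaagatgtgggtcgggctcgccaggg
Nr4a2, chr2:57124004-57124253, minus strand: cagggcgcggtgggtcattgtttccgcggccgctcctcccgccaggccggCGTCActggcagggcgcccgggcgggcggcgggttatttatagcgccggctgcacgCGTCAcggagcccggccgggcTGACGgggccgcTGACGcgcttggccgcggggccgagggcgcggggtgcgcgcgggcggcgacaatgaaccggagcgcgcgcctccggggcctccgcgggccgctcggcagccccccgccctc
Nr4a3, chr4:48045055-48045304, plus strand: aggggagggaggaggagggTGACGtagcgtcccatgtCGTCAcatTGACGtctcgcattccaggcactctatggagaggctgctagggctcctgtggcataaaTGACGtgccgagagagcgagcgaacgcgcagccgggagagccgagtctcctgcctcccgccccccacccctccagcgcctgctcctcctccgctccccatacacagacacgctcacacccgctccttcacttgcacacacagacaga
Dusp1, chr17:26508473-26508722, minus strand: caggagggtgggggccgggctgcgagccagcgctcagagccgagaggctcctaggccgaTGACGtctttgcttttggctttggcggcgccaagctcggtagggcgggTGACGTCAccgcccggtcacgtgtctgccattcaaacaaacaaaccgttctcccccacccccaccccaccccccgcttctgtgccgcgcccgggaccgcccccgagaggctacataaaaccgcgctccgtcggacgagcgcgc
Btg2, chr1:134079156-134079405, minus strand: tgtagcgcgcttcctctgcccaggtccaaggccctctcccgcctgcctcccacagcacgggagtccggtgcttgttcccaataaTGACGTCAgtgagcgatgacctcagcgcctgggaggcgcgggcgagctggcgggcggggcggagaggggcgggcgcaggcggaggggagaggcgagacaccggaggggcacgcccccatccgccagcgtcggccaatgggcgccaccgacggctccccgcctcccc

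Each Nr4a window held 4 half-sites, that of Dusp1 held 3 and that of Btg2 held 2. In Dusp1 and Btg2 a pair of them formed the full element. Over 27018 promoter windows of the same length, 17.9% held the half-site, 4.02% held at least 2 copies and 1.62% held the full element. The G and C share of these 5 windows ran from 63.6% in Nr4a3 to 80.0% in Nr4a2. In the other 5 genes it ran from 48.4% in Zfp36l1 to 70.4% in Dusp2. The share over all windows was not computed, and the motif shares take no account of it. The EGR element GCGNGGGCG lay in 5 of the 10 windows (Nr4a1, Nr4a2, Dusp2, Zfp36 and Btg2), against 4.65% of all windows. The AP-1 element TGANTCA lay in 1 of 10 (Zfp36l1), against 6.87%, and the SRF CArG box in 1 of 10 (Zfp36), against 1.4%. The NBRE, AAAGGTCA, to which Nr4a receptors bind as monomers, lay in 0 of 10 windows and in 1.31% of all. A match is a description of the letters and was not tied to binding here.

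**Figure D1:**
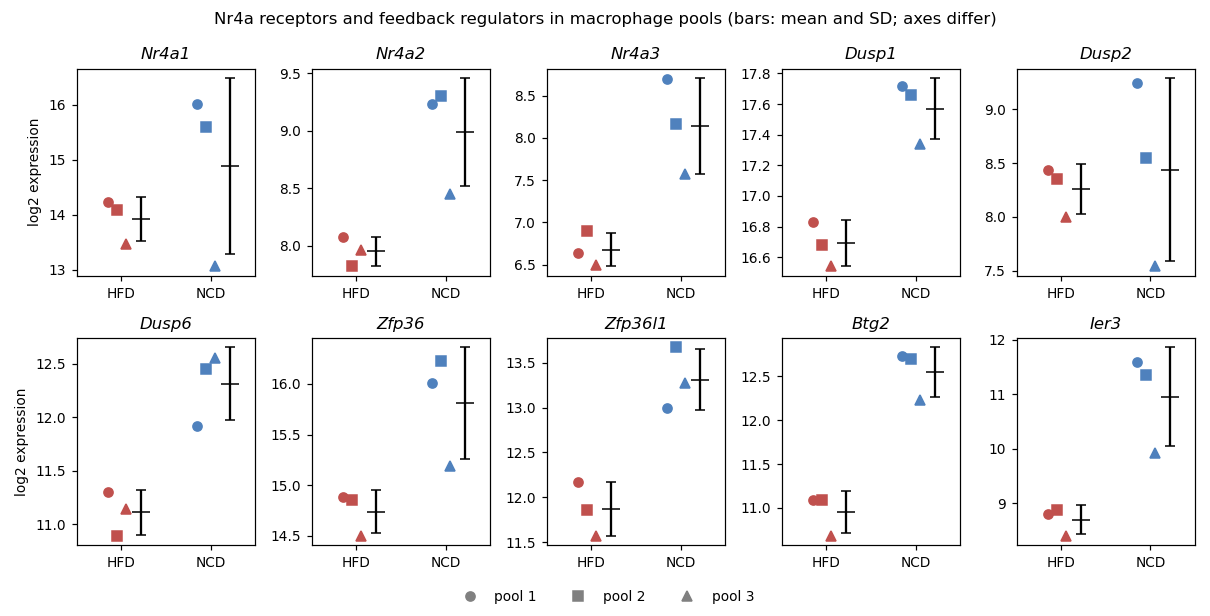
Log2 expression (vertical axes, which differ between panels) of the 10 genes in 3 HFD pools (red, left) and 3 NCD pools (blue, right); the bars are mean and SD. In 8 panels the HFD and NCD pools do not overlap, and in Nr4a1 and Dusp2 the third NCD pool lies below every HFD pool.

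Nr4a2 and Nr4a3 fell, while the change of Nr4a1 was not called and turned on 1 NCD pool. Nr4a1 (Nur77) had 14.23, 14.08 and 13.47 in HFD1 to HFD3 and 16.02, 15.59 and 13.06 in NCD1 to NCD3. NCD1 and NCD2 were above all HFD arrays, and NCD3 was the lowest of the 6, so the groups overlapped. The mean was 13.93 ± 0.40 in HFD and 14.89 ± 1.60 in NCD arrays (SD, n = 3 each), a change of −0.97 ± 0.74 (limma adjusted p = 0.498), with a 95% interval from −2.75 to 0.81. Without NCD3 the change of Nr4a1 was −1.88 with an adjusted p of 0.0226, and over all fits without 1 array it ran from −1.88 to −0.40.

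Nr4a2 (Nurr1), best known for its role in dopamine neurons, had 8.08, 7.82 and 7.96 in HFD and 9.23, 9.30 and 8.45 in NCD arrays. Every NCD array was above every HFD array, with NCD3 again the lowest of its group. It fell 2.06-fold (−1.04 ± 0.23, adjusted p = 0.0469), a call that was kept in 1 of 6 fits without 1 array, the one without NCD3. Nr4a3 (Nor-1), the third receptor of the family, had 6.64, 6.90 and 6.50 in HFD and 8.70, 8.16 and 7.57 in NCD arrays. The groups did not overlap, and the HFD values were the closest of the 10 genes to the background level of 6.23. It fell 2.75-fold (−1.46 ± 0.28, adjusted p = 0.0300). The fall ran from −1.74 to −1.18 over fits without 1 array and was called in 2 of these 6, those without NCD1 or NCD3. Of the retinoid X receptors, partners with which Nr4a1 and Nr4a2 can form heterodimers, Rxra fell by 0.52, a call kept in 1 of 6 fits without 1 array, and the other 2 were not called.

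Among the phosphatases Dusp1 and Dusp6 fell and Dusp2 was not called. Dusp1 acts in the nucleus, mainly on the stress kinases p38 and JNK. It had 16.83, 16.68 and 16.54 in HFD and 17.72, 17.66 and 17.34 in NCD arrays. This was the tightest of the NCD groups, with a range of 0.38, and it lay wholly above the HFD group. Dusp1 fell 1.85-fold (−0.89 ± 0.13, adjusted p = 0.0152), and the call was kept without HFD1, NCD1 or NCD3 and not without any of the other arrays.

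Dusp6 is a cytoplasmic phosphatase that acts on ERK and is itself induced by ERK signalling. It had 11.30, 10.89 and 11.14 in HFD and 11.92, 12.45 and 12.55 in NCD arrays. The groups did not overlap, and NCD1, not NCD3, was the lowest NCD array. Dusp6 fell 2.29-fold (−1.20 ± 0.20, adjusted p = 0.0210), called without NCD1 or NCD3 and in 0 of the other 4 fits without 1 array. Dusp2, a nuclear phosphatase of activated leukocytes, had 8.44, 8.35 and 8.0 in HFD and 9.24, 8.55 and 7.54 in NCD arrays. NCD1 and NCD2 were above the HFD arrays and NCD3 below them. Its change was −0.18 ± 0.40 (adjusted p = 0.840), with a 95% interval from −1.15 to 0.78, and it was 0.21 without NCD1 and −0.63 without NCD3.

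The mRNA decay factors were all lower in mean, and Btg2 had the steadiest call of the 10 genes. Btg2 restrains proliferation and recruits the CCR4-NOT deadenylase, which shortens mRNA tails. It had 11.09, 11.09 and 10.68 in HFD and 12.73, 12.70 and 12.23 in NCD arrays. The gap between the groups was wider than the range within either. Btg2 fell 3.04-fold (−1.60 ± 0.19, adjusted p = 0.00862) and was called in 6 of 6 fits without 1 array, at −1.77 to −1.47.

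Zfp36l1, a relative of tristetraprolin, had 12.17, 11.86 and 11.57 in HFD and 13.00, 13.67 and 13.27 in NCD arrays. It shared with Dusp6 the pattern in which NCD1 is the lowest NCD array and the groups do not overlap. Zfp36l1 fell 2.72-fold (−1.44 ± 0.22, adjusted p = 0.0165), called in 3 of 6 fits without 1 array and not without HFD2, HFD3 or NCD2. Zfp36 (tristetraprolin), which destabilises Tnf mRNA, had 14.88, 14.85 and 14.50 in HFD and 16.01, 16.23 and 15.19 in NCD arrays. The groups did not overlap, but NCD3 lay far below the other NCD arrays. The change of −1.07 ± 0.28 missed the threshold (adjusted p = 0.0683, unadjusted p = 0.00699). It passed without NCD3 (−1.38, adjusted p = 0.0154), after quantile normalization (0.0391), with array weights (0.0229) and with genes below background left out (0.0475). Quantile normalization took away the call of Nr4a2 (−1.02, adjusted p = 0.0543), so the count of 7 stayed while its members changed.

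Ier3 (IEX-1), a stress-inducible protein that modulates cell survival and ERK signalling, had the largest fall of the 10 genes. It had 8.81, 8.88 and 8.40 in HFD and 11.59, 11.36 and 9.93 in NCD arrays. All NCD arrays were above the HFD arrays, and NCD3 lay more than 1 log2 unit below NCD1 and NCD2. Ier3 fell 4.79-fold (−2.26 ± 0.43, adjusted p = 0.0294), and the fall ran from −2.78 without NCD3 to −1.94 without NCD1. Those were the 2 of 6 fits without 1 array in which it was called.

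**Figure D2:**
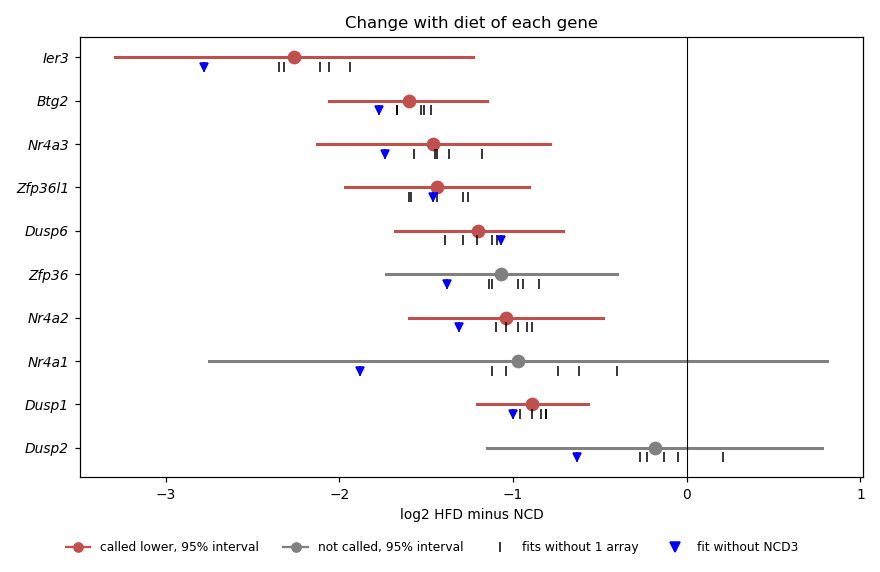
Change with diet (log2 HFD minus NCD, horizontal axis) of each gene, with the unadjusted 95% interval from all 6 arrays, the 6 fits without 1 array as ticks and the fit without NCD3 as a blue triangle. All points lie below 0 except Dusp2 without NCD1 at 0.21, and Nr4a1 moves furthest, to −1.88 without NCD3.

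The count of genes called lower was 9 without NCD3 (all but Dusp2), when 2.85% of all genes were called lower. It was 6 without NCD1, when 4713 genes were called in all and 2314 of them lower. Without HFD1 it was 3, when 1018 genes were called in all. It was 1 (Btg2) without NCD2, HFD2 or HFD3, and those last 3 fits called 442 to 474 genes in all. With all arrays 2359 genes were called, 865 of them lower. The NCD arrays varied more: the SD was larger in NCD than in HFD arrays for 10 of 10 genes, against 64.0% of all genes. The range within a diet was 0.26 to 0.76 in HFD and 0.38 to 2.96 in NCD arrays. NCD3 was the lowest NCD array for 8 of 10 genes, all but Dusp6 and Zfp36l1, and HFD3 was the lowest HFD array for 8 of 10, all but Nr4a2 and Dusp6. Over all genes those shares were 42.5% and 28.2%.

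**Figure D3:**
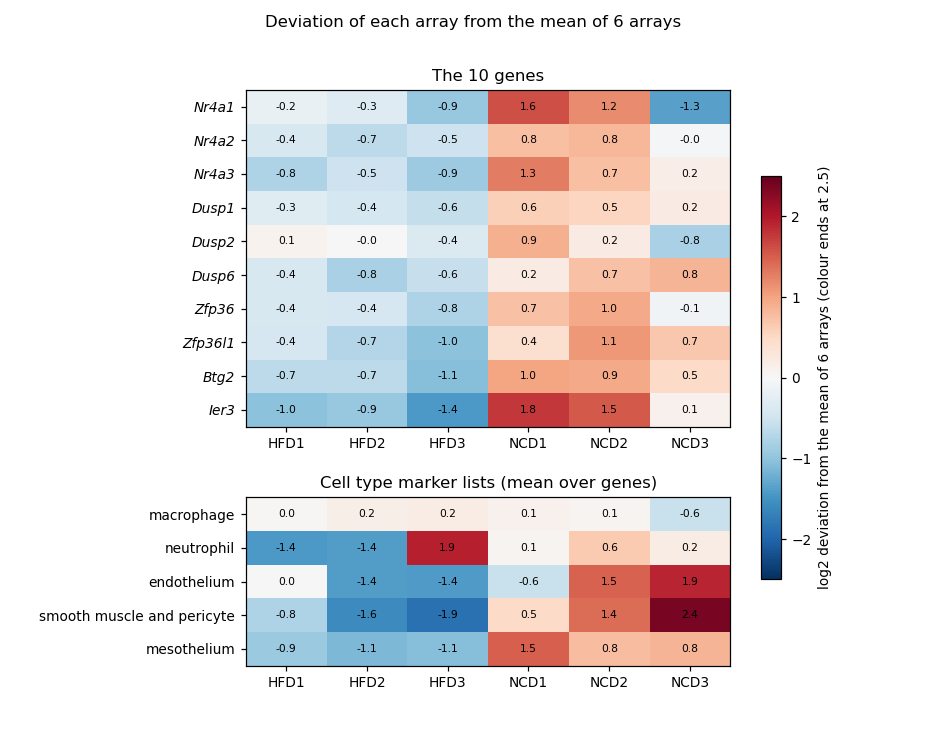
Deviation of each array from the mean of the 6 arrays (log2, colour and number) for the 10 genes (top) and for the mean of 5 cell type marker lists (bottom), with HFD arrays left of NCD arrays. The 10 genes are low in HFD arrays, except Dusp2 in HFD1 and HFD2 (0.08 and 0.00), and high in NCD1 and NCD2; NCD3 is mixed, low in macrophage markers and highest in endothelial and smooth muscle markers.

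Markers of other cells moved with diet beside these genes. Of 9 endothelial markers 0 were called with all arrays, but all 9 were called lower without NCD1 and 0 without any other array. Their mean level was 11.46 to 12.89 in HFD and 12.32 to 14.77 in NCD arrays. Of 9 smooth muscle and pericyte markers 6 fell (Acta2, Myh11, Tagln, Myl9, Cnn1 and Des), with mean levels of 8.01 to 9.10 in HFD and 10.36 to 12.25 in NCD arrays. That count was 8 without NCD1, 4 without HFD1 or NCD3, and 0 without HFD2, HFD3 or NCD2. All 6 mesothelial markers fell (Msln, Upk3b, Upk1b, Wt1, Krt19 and Lrrn4), with mean levels of 5.76 to 5.96 in HFD and 7.66 to 8.37 in NCD arrays. Without 1 array 4 to 6 of the mesothelial markers were called. Msln, Krt19 and Lrrn4 were below background on all 3 HFD arrays and Wt1 on 5 of the 6 arrays, so the sizes of their falls are uncertain.

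The endothelial mean was 12.89, 11.47 and 11.46 in HFD1 to HFD3 and 12.32, 14.34 and 14.77 in NCD1 to NCD3. All 9 endothelial markers had a lower mean in HFD arrays, with a median change of −1.8. A covariate made from them is therefore partly confounded with diet, and a fit with it cannot tell the parts of each apart. In NCD1 all 10 genes were above every HFD array, as were 32.1% of all genes. With the endothelial mean as a covariate 2 of 10 genes were called, Nr4a3 (−2.01, adjusted p = 0.0255) and Btg2 (−1.72, adjusted p = 0.0346). The other changes in that fit ran from −2.86 for Ier3 to −0.75 for Dusp6, with Nr4a1 at −1.99, Dusp2 at −0.86 and Zfp36l1 at −1.03. The part of smooth muscle and mesothelial cells in the falls was not tested. Neutrophil markers had a mean of 7.66, 7.70 and 11.05 in HFD1 to HFD3 and of 9.17 to 9.75 in NCD arrays, so HFD3 stood apart in them. Of 6 neutrophil markers Mmp9 fell and 5 were not called, and 3 were called lower without HFD3. Of 5 mast cell markers 3 rose (Mcpt4, Cpa3 and Tpsb2), and of 7 fibroblast markers 4 rose (Col1a1, Col1a2, Col3a1 and Lum). Without 1 array these counts were 0 to 3 and 1 to 4. The fibroblast list did not share one direction: Dcn (−0.88, adjusted p = 0.126) and Dpp4 (−1.42, adjusted p = 0.111) were lower without overlap, though not called. Dpp4 was called lower without NCD1 (−0.88, adjusted p = 0.0254). Of the macrophage markers Cd68 and Fcgr1 rose, Mertk fell and 9 were not called. Cd68 was called in 2, Fcgr1 in 4 and Mertk in 1 of 6 fits without 1 array. Adgre1 (0.91, adjusted p = 0.0924) was higher without overlap. It was called higher without NCD1 (1.11, adjusted p = 0.0389) or NCD3 (0.59, adjusted p = 0.0364). Cd14 was called lower without NCD3 (−1.01, adjusted p = 0.0338). Among 5 dendritic cell markers Cd209a fell, and 3, Flt3, Xcr1 and Itgae, were below background on every array. Monocyte, T cell, B cell and adipocyte markers gave 0 calls among 3, 6, 4 and 6 measured.

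Of the other early transcription factors, those called with all arrays were lower. Of 19 measured, 8 fell, 0 rose and 11 were not called, with a median of −0.55. The count lower was 8 without NCD1 or NCD3, 5 without HFD1 or HFD2, 4 without HFD3 and 3 without NCD2. Fosb, an AP-1 subunit, fell 8.0-fold (−3.00 ± 0.33), and Jun, another, fell 4.20-fold (−2.07 ± 0.27). Klf4 (−2.43 ± 0.21) and Klf2 (−1.80 ± 0.19), zinc finger factors that restrain inflammatory activation in macrophages, fell too, as did Ier2 (−2.05 ± 0.27), Egr1 (−1.70 ± 0.30), Jund (−1.35 ± 0.22) and Fos (−1.08 ± 0.20). Fosb, Klf2 and Klf4 were called whichever array was left out, while Fos, Jund and Egr1 lost it in 4 of 6 such fits. Klf4 had 12.06, 12.40 and 12.79 and Klf2 had 13.83, 14.02 and 14.05 in NCD1 to NCD3. Among NCD arrays both were lowest in NCD1, as was the endothelial mean. Fosb, Jun, Ier2, Egr1, Jund and Fos were lowest in NCD3. The part of endothelial cells in the falls of Klf2 and Klf4 was not tested. Klf6 was at −0.55 (adjusted p = 0.10), Atf3 at 0.35 (adjusted p = 0.743) and Egr2 at 0.88 (adjusted p = 0.174), none of them called, though Egr2 was called higher without NCD1 (1.21, adjusted p = 0.0269).

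The calls among relatives of the 10 genes were few, and most were lost in several of the fits without 1 array. Of 10 other MAP kinase phosphatases, Dusp4 rose by 1.04 ± 0.14 and Dusp9 by 0.85 ± 0.17, Dusp16 fell by 0.58 and 7 were not called, with a median of 0.13. Dusp4, a nuclear phosphatase, had 7.61, 7.85 and 7.69 in HFD and 6.63, 6.48 and 6.93 in NCD arrays, with no overlap. Dusp4 was called in 3 of 6 fits without 1 array, Dusp9 in 2 and Dusp16 in 1. Dusp9 was below background on 5 of 6 arrays, so its change has no reliable size. Dusp3, Dusp7 and Dusp22 were within 0.15 of 0.

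Of 8 inhibitors of receptor kinase signalling, Spred1 rose by 0.86 ± 0.19, Errfi1 fell by 1.17 ± 0.25 and 6 were not called, among them Spred2 (−0.51, adjusted p = 0.224). Spred1 was called in 1 and Errfi1 in 2 of 6 fits without 1 array, and without NCD1 the list had 4 genes lower (Spry1, Spry4, Spred2 and Errfi1). Of 14 other mRNA decay and anti-proliferative genes, Btg3 (−1.49 ± 0.27) and Tob1 (−1.34 ± 0.29), both of the same family as Btg2, fell and 12 were not called, with a median of −0.01. Zfp36l2 (−0.21, adjusted p = 0.467) and Btg1 (−1.15, adjusted p = 0.124) were among those not called, and Btg3 and Tob1 were each called in 2 of 6 fits without 1 array. In NCD1 to NCD3, Btg3 had 10.62, 10.97 and 11.42 and Tob1 had 9.33, 9.85 and 10.54. Both were thus highest in NCD3, the lowest NCD array for Btg2. Of 10 genes listed under NF-kappaB and cytokine feedback, Socs3 (−1.27 ± 0.13) fell and kept its call without each array. Cish (−0.62), below background on every array, fell as well. The other 8 were not called. Of these, Nfkbia was at −0.69 (adjusted p = 0.230), Rgs1 at 0.40 (adjusted p = 0.560) and Rgs2 at 0.21 (adjusted p = 0.807). Rgs1 was called higher without NCD1 (0.81, adjusted p = 0.024). Without NCD3, 5 of the list were lower, with Nfkbia (−1.03), Nfkbie (−0.84) and Nfkbiz (−1.81) added, and without 1 of the other arrays 1 or 2 were.

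Of 19 genes of the MAP kinase cascade upstream, Map2k3, which activates p38, rose by 0.67 ± 0.13, 0 fell and 18 were not called, with a median of 0.07. Map2k3 was called in 1 of 6 fits without 1 array, and without NCD1 the list had 2 genes higher and 4 lower. Of 13 cytokine and related transcripts with AU-rich elements, the class that Zfp36 binds, Vegfa rose by 0.78 ± 0.12, 0 fell and 12 were not called, with a median of −0.02. Without NCD3, Il6 (−3.02, adjusted p = 0.0186) and Il1a (−2.49, adjusted p = 0.0174) were called lower, and Il10 was called higher without NCD1 (1.20, adjusted p = 0.0309). Their NCD arrays were far apart: all 13 were lowest in NCD3, and the mean level of the list was 10.41 to 10.76 in HFD arrays and 11.76, 10.84 and 8.87 in NCD1 to NCD3. Of 9 heat shock genes, which also respond to handling of cells, Hspb1 fell (−2.48 ± 0.45), Bag3 rose (0.79 ± 0.15) and 7 were not called, with a median of 0.05. The largest difference in that list, Hspa1a at −3.11, was not called (adjusted p = 0.0798) though its groups did not overlap, and Dnajb1 was at −0.76 (adjusted p = 0.0535). Both were called without NCD3, Hspa1a at −3.89 (adjusted p = 0.0417) and Dnajb1 at −0.90 (adjusted p = 0.0386). Other genes of the list went the other way: Hspd1 (0.64), Hsph1 (0.59) and Hspe1 (0.42) were higher without overlap and not called. Hspd1 was called higher without NCD1 (0.82, adjusted p = 0.00993). Hspb1 was called in 1 and Bag3 in 2 of 6 fits without 1 array. Both diets' cells passed through collagenase digestion, and its part in the levels of early genes was not tested.

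**Figure D4:**
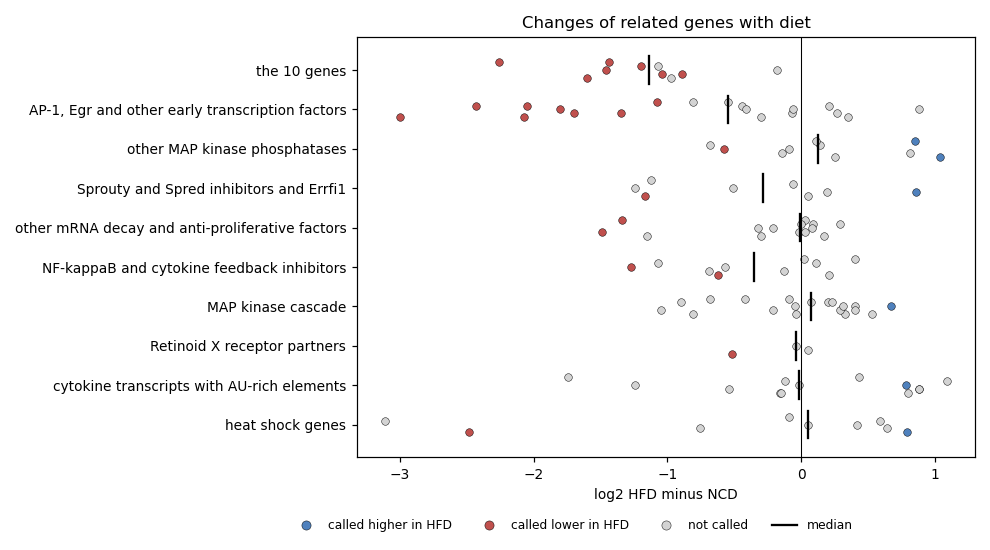
Change with diet (log2 HFD minus NCD, horizontal axis) of the 10 genes and of 9 lists of related genes; each point is a gene, blue if called higher, red if called lower and grey if not called, and black ticks are list medians. The 10 genes have a median of −1.13 and the early transcription factors of −0.55, while the other lists lie between −0.35 and 0.13.

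The genes whose 6 values ran most like those of Nr4a1 were Serpinb2, Clec4e, Nfkbiz, Ccrl2 and F5, out of 15737 genes above background. Likeness was the root mean square difference of the values after removing each gene's mean, and it ran from 0.234 log2 for Serpinb2 to 0.357 for F5. Serpinb2, a protease inhibitor of activated macrophages, had 13.87, 14.13 and 13.23 in HFD and 15.52, 14.93 and 12.92 in NCD arrays. Clec4e, the lectin receptor Mincle, had 11.72, 11.50 and 11.31 in HFD and 13.34, 13.08 and 10.05 in NCD arrays. Both were high in NCD1 and NCD2 and lowest of all in NCD3, and 0 of these 5 genes were called between the diets. That shape comes with the choice for likeness to Nr4a1, which was not called either. Within the set of 10, Dusp2 was nearest to Nr4a1 (0.619) and Dusp6 farthest (1.11), followed from the far end by Zfp36l1 (0.981). Ranked among genes outside the set, Dusp2 would come at place 86 and Dusp6 at 8126, so many other genes ran closer to Nr4a1.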

How the data were processed

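The values are the authors' deposited log2 levels, with a row for each transcript cluster and a column for each array. RMA, Transcriptome Analysis Console 3.1.0.5 and Expression Console 1.4.1.46 (Affymetrix) are listed per the submitters' processing notes, with no order or settings. The deposited values reach 19.49 to 19.55 log2 per array, higher than RMA usually gives; the reason was not given in the sources used here, and folds hold on that scale only. The genome build of the array annotation was not given in the sources used here. After 6732 control rows were left out, rows with 1 gene symbol were kept, 1 per gene by highest mean, giving 30142 genes. Symbols came from the platform annotation, updated through RefSeq identifiers. Background was the 95th percentile of 23 antigenomic rows, averaged over arrays.

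Diets were compared with limma 3.58.1 (lmFit, eBayes with a variance trend; R 4.3.3), two-sided, with Benjamini-Hochberg adjustment over all genes; called means an adjusted p below 0.05. The test was tried on simulated data with known changes. Intervals are unadjusted. On arrays, precision is limited by their number; the median standard error was 0.118. Named genes were the 10 genes, the called genes of each list and up to 3 of the brightest not called. Other list genes (Hspa1a, Dnajb1, Hspd1, Hspe1, Il6, Il1a, Il10, Nfkbie, Spry4, Adgre1 and Cd14) were named after their values were seen. The genes, lists and tests were chosen with earlier results of these data known. Promoters were the 250 bases before 1 RefSeq start per gene (GRCm38.p6). Alternatives covered scaling, variance model, filter, row choice, a replicate block, an endothelial covariate and single arrays left out.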

Additional observations from a re-analysis of the deposited data

How the results depend on the processing

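Over 14 alternatives the 10 genes gave 140 changes, of which 139 were below 0; the exception was Dusp2, which ran from −0.63 to 0.21 over fits without 1 array and was 0.21 without NCD1. The side of the threshold held in 100 of the 140, 35 lost a call and 5 gained one. The number of the 10 genes called lower was 1 to 9 over fits without 1 array, 1 with the replicate block and 2 with the endothelial covariate, and 7 or 8 under each other alternative, while 0 were called higher in any. The early transcription factors called lower numbered 3 to 8 without 1 array, 3 with the block and 5 with the covariate. Over all genes 2359 were called, and 442 to 4713 without 1 array, 144 with the block, 4282 with array weights and 705 with the covariate. Fits without 1 array, with the block or with a covariate have fewer residual degrees of freedom than the fit of all arrays. Higher genes were 63.3% of all called, 78.8% after median centring and 52.1% without NCD3. Same-numbered arrays did not deviate together (r = −0.55, −0.21 and −0.20 over genes above background for numbers 1 to 3), so the numbers were not taken as pairs and a call lost under the block was not read as a weaker effect. Arrays have no read depth; Nr4a3 in HFD arrays was the reading of the 10 genes nearest background.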
